A study of Mus musculus with 18 samples.

Results

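Chemokines, interleukins and tumour necrosis factor (TNF) superfamily members are the signals through which cells of the joint call in leukocytes, alarm each other and set the balance of bone and matrix turnover. The members were all genes on the array whose annotated symbol begins with Ccl, Ccr, Cxcl, Cxcr, Cx3c, Ackr or Il and a number, or with Tnfsf or Tnfrsf, so ligands and receptors stand side by side. They were 77 of 11499 named genes, read by 118 of the 18998 probes that carry 1 gene name. The rule reads symbols and no measured value.

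Male C57Bl6/J mice gave the cartilage, dissected from the medial side of the tibial plateau. It came from animals whose right knee had its medial meniscus destabilised (DMM) at 10 weeks of age, and each gave the left, contralateral knee too, which was not operated. Joints were taken 2, 4 and 8 weeks after surgery, when the mice were 12, 14 and 18 weeks old. Each of the 6 groups had 3 arrays, 18 in all, and each array held RNA pooled from 8 mice. The contralateral knees belonged to operated animals and no sham-operated knees were analysed here, so every comparison is with the other knee of mice that had been through surgery. Which DMM pool shares its mice with which contralateral pool is not stated. Pools were therefore compared as unpaired, and p-values measure the spread between pools.

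Values are log2 intensities after normalisation by the authors, so a difference of 1 is a doubling of the probe signal. Every array had a median of 6.55 to 6.56. Many members were dim: the mean of the brightest probe lay below the median of all probes for 49 of 77 genes and below their 25th percentile for 24. The highest was 9.72 and the lowest 5.44. A gene was called when any of its probes had an adjusted p below 0.05 in limma, with adjustment over all 22999 probes, and the value given is that of its brightest probe. In such pools fewer cells of a type and less RNA per cell cannot be told apart.

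The tissue label was checked first. The mean over 10 chondrocyte markers was 9.18 to 9.67 on contralateral arrays and 9.28 to 9.82 on DMM arrays. Markers of other cell types also gave signal, and the means of several lists differed between the knees at 2 weeks. Which cells carried these markers was not tested. The mean of 12 fibroblast and synovium markers was 9.19 to 10.00 on contralateral and 10.66 to 10.72 on DMM arrays at 2 weeks, and 10 of the 12 rose. That of 10 macrophage markers was 7.30 to 7.52 against 7.77 to 8.11, and 3 rose. That of 12 skeletal muscle markers was 7.99 to 8.77 against 5.94 to 6.74, and all 12 fell. That of 7 adipocyte markers was 7.18 to 9.77 against 6.71 to 6.92, and Cidec and Pck1 fell. Contralateral replicate 2 of 2 weeks had the 9.77, and without it 13 members were called at 2 weeks, 12 of them the same genes as with it. At 8 weeks contralateral replicate 2 and DMM replicate 3 stood apart, with means of 12 neutrophil markers of 6.54 and 6.44 where the other 4 arrays read 8.05 to 8.87. With both left out no member was called at 8 weeks, as with all 6 arrays. Contralateral replicate 2 of 8 weeks also had a skeletal muscle mean of 9.68, where the other arrays of that week read 7.19 to 8.34. The part of these markers in the results below was not tested.

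The families work in pairs of ligand and receptor. Chemokines bind receptors that move leukocytes up a gradient, while atypical receptors (the Ackr genes) bind the same chemokines and remove or carry them without sending that signal. Interleukins act through receptor chains that are often shared, and decoy receptors and soluble antagonists hold them in check. In the TNF superfamily, trimeric ligands meet receptors that either carry a death domain, feed the NF-kappa-B pathway or, as osteoprotegerin does, mop up the ligand. In joints these signals are known for their part in synovial inflammation, osteoclast formation and matrix breakdown.

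At 2 weeks 13 of the 77 members were called between DMM and contralateral cartilage, 16.9%, beside 8.64% of all named genes. The 7 that rose were the atypical chemokine receptors Ackr1 and Ackr4, the chemokines Ccl9 and Cxcl1, the interleukin Il33 and the receptor genes Il13ra1 and Il17rd. They were 9.09% of members, beside 4.89% of all genes. The 6 that fell were Tnfrsf11b, Tnfrsf10b, Tnfrsf21, Tnfrsf22, Il27ra and Cxcr2, 7.79% of members beside 3.77% of all genes. The median difference over all members was 0.04, beside 0.01 for all genes, with members on both sides of 0. The 3 DMM arrays lay above the 3 contralateral arrays for 18 members and below for 13, where 15.5% and 12.3% of all genes did so. Of the 9 TNF receptors 4 fell and 0 rose, and of the 9 chemokine receptors 2 rose and 1 fell, where 4.89% of all genes rose and 3.77% fell. Tnfrsf10b and Tnfrsf22 were called on the brightest probe only, with other probes on both sides of 0. Tnfrsf21 and Cxcr2 were called on a dimmer probe only. The TNF receptors Tnfrsf11a, Tnfrsf12a and Tnfrsf1b lay wholly above the contralateral arrays without a call. The difference between roles was not tested. Without DMM replicate 1, 2 or 3 of 2 weeks the count of 13 dropped to 8, 5 and 5. Ackr1, Ackr4, Il17rd and Tnfrsf11b kept their call in all 6 fits with an array left out and in all 8 other settings tried.

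**Figure D1:**
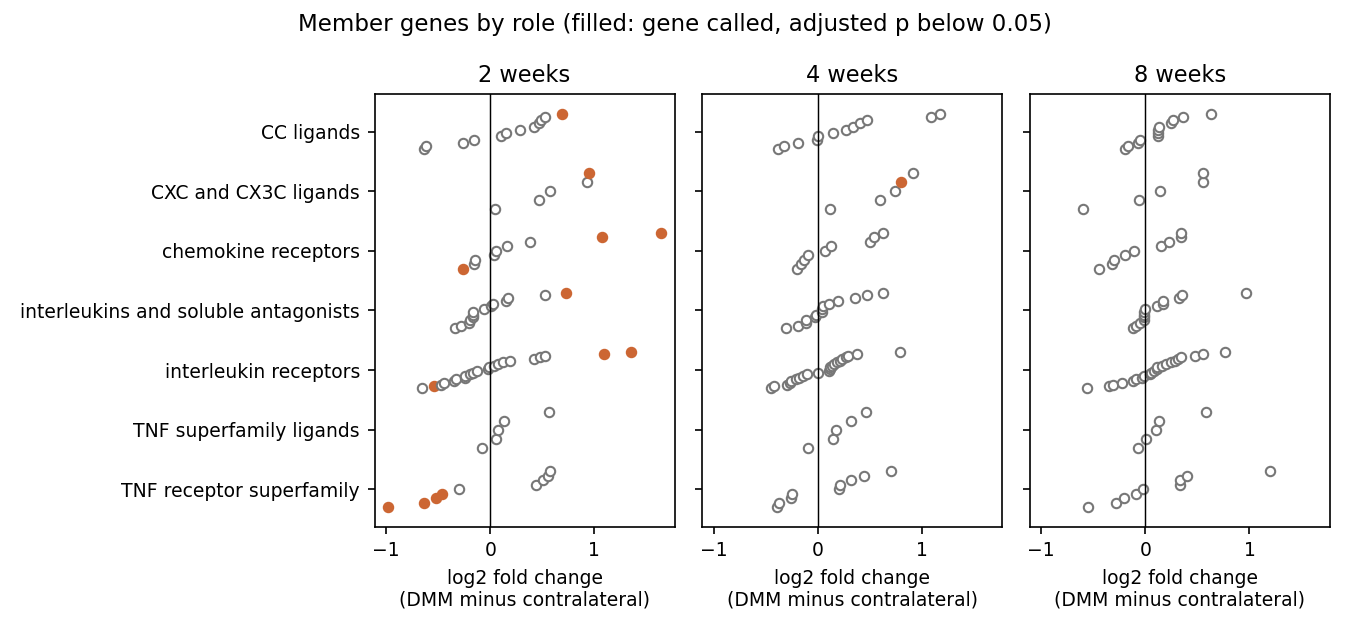
Log2 fold change (DMM minus contralateral, x axis) of the brightest probe of 76 member genes at 2, 4 and 8 weeks, in rows by role. Filled points are genes with any probe past the threshold: 13 at 2 weeks, 1 at 4 weeks and 0 at 8 weeks. Il4i1, an enzyme, is not drawn.

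The largest difference of any member was in Ackr4, the atypical receptor that takes up Ccl19, Ccl21 and Ccl25. At 2 weeks its contralateral arrays read 6.90, 7.0 and 7.03 and its DMM arrays 8.76, 8.55 and 8.55. The groups were far apart, with a gap wider than the spread within either. The difference was 1.64 ± 0.13 (SE), 3.12-fold, with an adjusted p of 0.000303 in limma. A second probe read 1.58 ± 0.13 with the same adjusted p, and the remaining probe, a dimmer one, read 0.85 ± 0.28 (adjusted p = 0.103). By 4 weeks the DMM arrays read 7.83, 7.95 and 7.79 and the contralateral arrays 6.78, 7.79 and 7.10. One contralateral array had reached the lowest DMM value, and the difference of 0.63 ± 0.22 did not pass (adjusted p = 0.227). At 8 weeks the values were 6.71, 7.74 and 7.63 in DMM and 7.64, 7.23 and 6.75 in contralateral cartilage, fully overlapping, with a difference of 0.15 ± 0.32.

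Within DMM cartilage Ackr4 fell by 0.76 ± 0.12 from 2 to 4 weeks (adjusted p = 0.00423), although in 1 fit of all 18 arrays this fall no longer passed (adjusted p = 0.305). From 2 to 8 weeks it differed by -1.26 ± 0.25, which did not pass (adjusted p = 0.0635). The change of the DMM effect itself from 2 to 8 weeks was -1.49 ± 0.37 and did not pass either (adjusted p = 0.22).

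Ackr1, the Duffy antigen receptor, binds many CC and CXC chemokines on venular endothelium and red cells. Its 2-week contralateral arrays read 6.0, 6.13 and 6.0 and its DMM arrays 7.32, 7.02 and 6.99. Every DMM array was higher by more than the spread of either group, and the difference was 1.07 ± 0.14, 2.09-fold (adjusted p = 0.00274). At 4 weeks the DMM arrays, at 6.70, 7.04 and 6.84, still lay above the contralateral arrays at 6.44, 5.93 and 6.59, with a difference of 0.54 ± 0.18 that did not pass (adjusted p = 0.216). At 8 weeks the order had gone: 6.47, 6.80 and 6.27 in DMM against 6.96, 6.51 and 6.66 in contralateral cartilage. The change of the DMM effect from 2 to 8 weeks was -1.26 ± 0.25, with an unadjusted p of 9.2e-05 and an adjusted p of 0.102. Over 9 endothelial markers the mean was 6.01 to 6.68 on contralateral and 6.61 to 6.76 on DMM arrays at 2 weeks, with 1 marker called. It was 5.88 to 6.13 against 6.16 to 6.60 at 4 weeks, with no overlap and none called, and 6.08 to 6.40 against 5.95 to 6.60 at 8 weeks. Over 5 erythroid markers, none of them called, the mean was lower on every DMM array at 2 weeks, at 6.93 to 7.48 against 6.47 to 6.71. It was 7.22 to 8.04 against 7.88 to 8.34 at 4 weeks. The part of either cell type in the Ackr1 values was not tested.

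No ligand of Ackr4 was called at any single week. Ccl21a, which guides dendritic cells and T cells through Ccr7, read 5.85, 5.35 and 5.49 in contralateral and 5.91, 7.39 and 6.66 in DMM cartilage at 4 weeks. The groups did not overlap, yet 1 DMM array lay only just above the other side, and the difference of 1.09 ± 0.29 did not pass (adjusted p = 0.121). Over the 3 weeks its mean difference was 0.64 ± 0.17 (adjusted p = 0.0225), a call lost when DMM replicate 3 of 2 weeks was left out (adjusted p = 0.0565). The near-identical Ccl21c read 1.17 ± 0.33 at 4 weeks, and signal from the 2 copies may not be told apart by these probes. Ccl19, the other Ccr7 ligand, stood at 0.49 ± 0.16 at 2 weeks (adjusted p = 0.101) and 0.00 ± 0.14 at 4 weeks. Ccl25, a thymus and gut chemokine, stood at 0.10 ± 0.18, -0.32 ± 0.17 and -0.20 ± 0.23 at 2, 4 and 8 weeks, with the groups overlapping each time.

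Among the ligands that act on neutrophils and monocytes, Cxcl1 and Ccl9 rose at 2 weeks. Cxcl1, which draws neutrophils through Cxcr2, read 5.94, 6.27 and 6.35 in contralateral and 7.12, 6.99 and 7.29 in DMM cartilage. All DMM arrays were higher, by 0.95 ± 0.15 or 1.93-fold (adjusted p = 0.0058). In 1 fit of all 18 arrays the call was lost (adjusted p = 0.0944). At 4 weeks its DMM arrays, at 6.74, 6.92 and 7.71, were still above the contralateral arrays at 6.45, 6.53 and 6.58 (0.60 ± 0.21, adjusted p = 0.247), and at 8 weeks the groups overlapped, with a difference of 0.14 ± 0.41. Its mean over the 3 weeks, 0.56 ± 0.19, did not pass (adjusted p = 0.0608) and did without contralateral replicate 2 of 8 weeks (adjusted p = 0.00617).

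Ccl9 is a mouse chemokine made by macrophages and osteoclasts that acts through Ccr1. It read 7.55, 6.97 and 7.42 in contralateral and 7.90, 8.02 and 8.09 in DMM cartilage at 2 weeks, a difference of 0.69 ± 0.16 (adjusted p = 0.0297). The groups were separate, but with any 1 of the 3 DMM arrays left out the call was lost (adjusted p = 0.0738, 0.117 and 0.14 without DMM replicates 1, 2 and 3). The 10 macrophage markers, given above, were also higher on every DMM array at 2 weeks, and their part in Ccl9 was not tested. None of the other 11 CC ligands passed at 2 weeks. Ccl7, a monocyte attractant, came nearest with 0.42 ± 0.13 (adjusted p = 0.085).

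The promoters of 4 cytokine genes are shown because 2 of the genes were called at 2 weeks (Cxcl1, Ccl9), 1 over the 3 weeks (Il11), and 1 was called in no comparison (Il6). Each is the 150 bases before the RefSeq start, 5′ to 3′ along the gene, in mouse build GRCm38.p6. Capitals mark the kappa-B consensus, to which NF-kappa-B binds, and TGANTCA, the AP-1 letters, searched on both strands. Cxcl1 lies at chr5:90891095-90891244 on the plus strand, and its capitals are 2 overlapping kappa-B matches. Ccl9 lies at chr11:83578637-83578786 on the minus strand, with an AP-1 match first and a kappa-B match after it. Il11 lies at chr7:4778142-4778291 on the minus strand, with an AP-1 match, and Il6 at chr5:30012964-30013113 on the plus strand, with a kappa-B match.
Cxcl1: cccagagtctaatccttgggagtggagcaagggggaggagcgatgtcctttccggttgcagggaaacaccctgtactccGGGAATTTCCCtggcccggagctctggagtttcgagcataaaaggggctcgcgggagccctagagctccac
Ccl9: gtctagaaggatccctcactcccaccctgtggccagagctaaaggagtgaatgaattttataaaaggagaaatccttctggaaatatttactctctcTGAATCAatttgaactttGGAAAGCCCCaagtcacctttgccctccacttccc
Il11: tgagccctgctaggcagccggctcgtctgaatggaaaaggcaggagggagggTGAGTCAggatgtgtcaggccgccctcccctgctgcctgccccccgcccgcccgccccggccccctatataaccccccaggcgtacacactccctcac
Il6: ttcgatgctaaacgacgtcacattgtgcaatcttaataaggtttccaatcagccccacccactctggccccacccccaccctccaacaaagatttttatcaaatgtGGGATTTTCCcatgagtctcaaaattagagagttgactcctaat
Over windows from 250 bases before to 50 after a start, the kappa-B consensus was found in 10 of the 75 windows of the 61 members that had one, 13.3%, beside 8.46% of 32851 windows of all genes. TGANTCA was found in 12 of the 75, 16.0%, beside 7.81%. The 2 motifs did not overlap in the sequences shown. The matches are letters only, and Il6 carries one with no call. A second RefSeq window of Il11 held neither motif, and an AP-1 match of Il6 lies before the bases shown.

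Of the other CXC ligands 1 was called at a single week. Cxcl14, a chemokine found in skin and connective tissue, was the only member called at 4 weeks, 1.30% of members beside 0.939% of all genes, or 0.504% for those that rose. It read 7.69, 8.01 and 7.93 in contralateral and 8.51, 8.90 and 8.63 in DMM cartilage, with every DMM array higher, by 0.80 ± 0.15 (adjusted p = 0.043). The call was lost without any one of the 3 contralateral arrays or DMM replicate 2 or 3 of 4 weeks, with adjusted p from 0.0585 to 0.155. At 2 weeks it stood at 0.47 ± 0.14 (adjusted p = 0.0749) and at 8 weeks at 0.55 ± 0.20 (adjusted p = 0.515). At 4 weeks 16 members lay wholly above the contralateral arrays and 2 wholly below, beside 10.6% and 8.88% of all genes, and the median difference over members was 0.12, beside 0.00 for all genes.

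Cxcl16, a membrane-bound ligand of Cxcr6 on T cells, read 5.41, 5.63 and 5.74 in contralateral and 6.41, 6.14 and 6.95 in DMM cartilage at 4 weeks. The groups were apart, with a difference of 0.91 ± 0.19 (adjusted p = 0.0636). Its receptor gene Cxcr6 stood at -0.20 ± 0.16. Cx3cl1 (fractalkine), an adhesive chemokine, and its receptor gene Cx3cr1 differed by 0.12 ± 0.13 and 0.13 ± 0.14 at 4 weeks, and neither passed at any week.

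Cxcl12, which holds stem cells and leukocytes in marrow through Cxcr4, was read by 4 probes that did not tell 1 story. On the brightest, 2-week contralateral arrays read 8.69, 7.58 and 7.87 and DMM arrays 8.76, 9.48 and 8.69, a difference of 0.93 ± 0.28 (adjusted p = 0.0745), with the highest contralateral and the lowest DMM array equal after rounding. At 4 weeks the difference was 0.74 ± 0.21, and at 8 weeks it was -0.60 ± 0.32, with DMM replicate 3 at 7.56 and every other 8-week array between 8.61 and 9.18. The change of the DMM effect from 2 to 8 weeks was -1.52 ± 0.46 (adjusted p = 0.28). On a second probe Cxcl12 rose by 1.33 ± 0.18 in DMM cartilage from 2 to 4 weeks (adjusted p = 0.00126), where the brightest probe showed 0.02 ± 0.20. The second probe differed by 0.90 ± 0.20 in contralateral cartilage over the same weeks (adjusted p = 0.182). The mean of the 4 probes differed by 0.45 (adjusted p = 0.192).

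**Figure D2:**
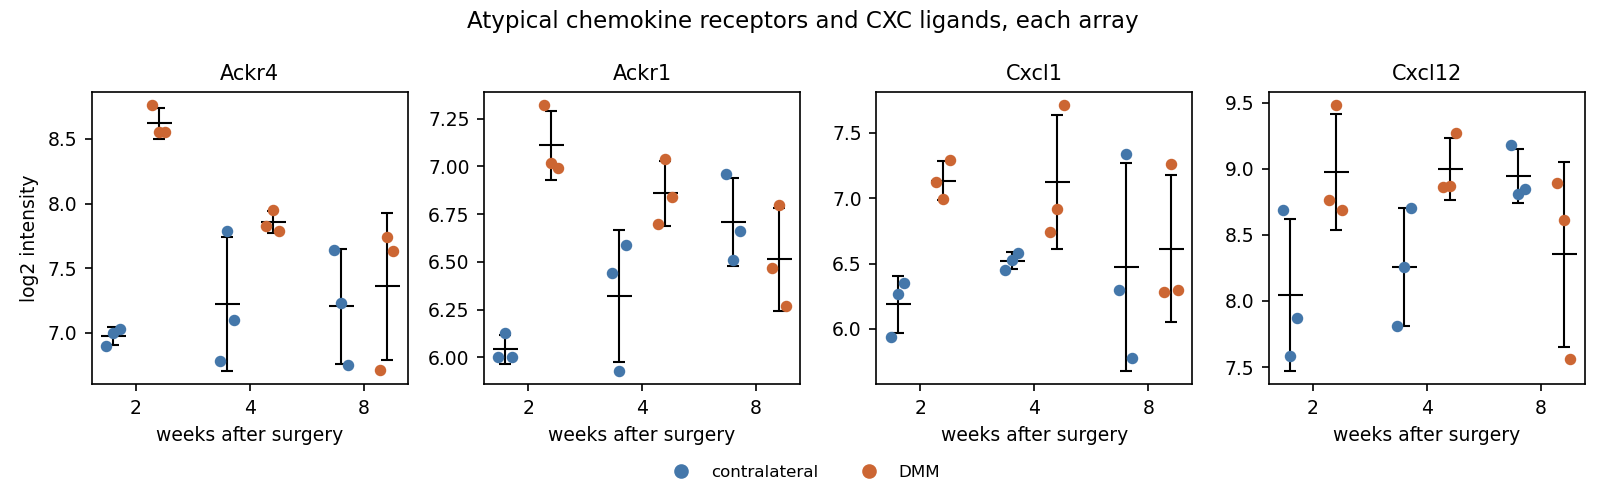
Log2 intensity (y axis) of Ackr4, Ackr1, Cxcl1 and Cxcl12 (brightest probes) on each of the 18 arrays by weeks after surgery (x axis). Points are arrays, bars the mean and SD of 3 arrays. The 2-week DMM arrays of Ackr4 (8.55 to 8.76) and Ackr1 (6.99 to 7.32) stand above all contralateral arrays, and by 8 weeks the 2 sides overlap.

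The receptor genes Cxcr2, Cxcr4 and Il1r2 and the ligand gene Tnfsf14 moved mainly with time. In DMM cartilage 7 members were called between 4 and 2 weeks, 9.09% beside 3.59% of all genes (2.46% rose and 1.13% fell): Cxcl12, Cxcr2, Cxcr4, Il1r2, Tnfrsf11b and Tnfsf14 rose and Ackr4 fell. Cxcr2, the receptor for Cxcl1 on neutrophils, read 5.83, 5.73 and 5.69 at 2 weeks and 7.16, 7.09 and 6.71 at 4 weeks. It rose by 1.24 ± 0.14 (adjusted p = 0.000253), and its second probe by 1.53 ± 0.12 (adjusted p = 2.05e-05). Il1r2, a decoy receptor for interleukin 1 made by neutrophils among other cells, read 5.39, 5.35 and 5.37 and then 6.03, 6.39 and 6.20, a rise of 0.84 ± 0.13 (adjusted p = 0.00274).

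These rises had a counterpart on the other knee. Cxcr2 in contralateral cartilage read 6.16, 6.04 and 5.84 at 2 weeks and 7.60, 6.59 and 6.56 at 4 weeks, a difference of 0.90 ± 0.25 with no overlap that did not pass (adjusted p = 0.378). The change of its DMM effect from 2 to 4 weeks was 0.33 ± 0.40 (adjusted p = 0.95). Il1r2 in contralateral cartilage had means of 5.54 at 2 weeks and 5.94 at 4 weeks, a smaller step than in DMM cartilage and not called. The change of the Il1r2 DMM effect was 0.43 ± 0.28 (adjusted p = 0.896). The neutrophil markers moved the same way: the mean of the 12 was 6.23 to 7.02 at 2 weeks and 9.01 to 9.19 at 4 weeks in DMM cartilage, and 6.88 to 7.25 and 7.94 to 8.64 in contralateral cartilage. The mean of 5 erythroid markers rose too in DMM cartilage, from 6.47 to 6.71 at 2 weeks to 7.88 to 8.34 at 4 weeks. In contralateral cartilage it was 6.93 to 7.48 and 7.22 to 8.04. Not every list rose: the fibroblast and synovium mean was 10.66 to 10.72 and then 10.03 to 10.46 in DMM cartilage. The part of these lists in Cxcr2, Il1r2 and Tnfsf14 was not tested. Tnfsf14 (LIGHT), a T cell costimulator, rose by 0.66 ± 0.12 in DMM cartilage (adjusted p = 0.0123) and stood at 0.54 ± 0.16 in contralateral cartilage (adjusted p = 0.413). Cxcr4 rose by 0.77 ± 0.15 (adjusted p = 0.0174) and stood at 0.65 ± 0.17 on the other side (adjusted p = 0.316).

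Some of these calls rested on single arrays. Tnfsf14 lost its call without DMM replicate 2 or 3 of 2 weeks (adjusted p = 0.0661 and 0.0621), and Cxcr4 without the same arrays (0.0768 and 0.107) or DMM replicate 3 of 4 weeks (0.0572). In 1 fit of all 18 arrays only Cxcr2 kept its call, so the count dropped from 7 to 1, and it was 4 without DMM replicate 2 or 3 of 2 weeks. Between sides at 2 weeks a dimmer Cxcr2 probe fell by 0.55 ± 0.13 (adjusted p = 0.0302), where the brightest read -0.26 ± 0.14 (adjusted p = 0.297). That call was kept in 1 of 6 fits with an array left out. It was lost without contralateral replicate 1 or 3 (0.0515 both times) or any DMM array (0.0595 to 0.152).

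**Figure D3:**
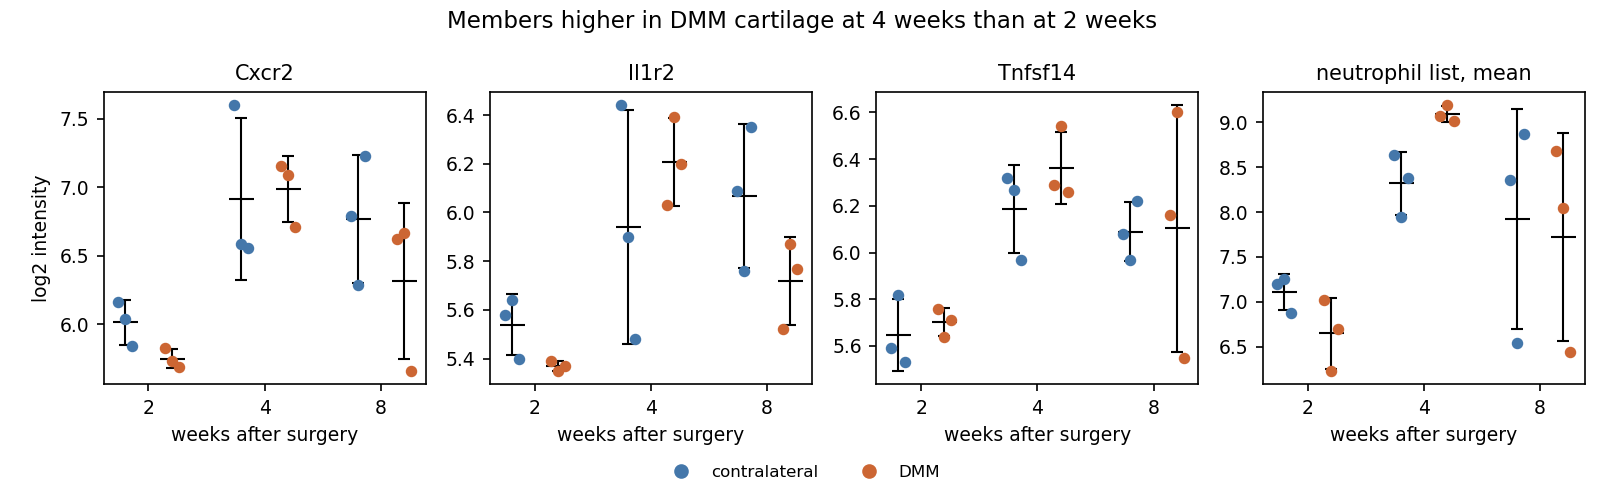
Log2 intensity (y axis) of Cxcr2, Il1r2 and Tnfsf14 and the mean of 12 neutrophil markers on each array, by weeks after surgery (x axis). Points are arrays, bars the mean and SD of 3 arrays. In DMM cartilage all 4 were higher at 4 than at 2 weeks, and at 8 weeks DMM replicate 3 had the lowest marker mean, 6.44.

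The bone-remodelling trio was split. Tnfsf11 (RANKL) is the ligand that makes osteoclasts, Tnfrsf11a (RANK) its receptor on their precursors, and Tnfrsf11b (osteoprotegerin) the soluble decoy that blocks it. Osteoprotegerin fell at 2 weeks: contralateral arrays read 9.08, 9.24 and 9.37 and DMM arrays 8.43, 8.05 and 8.29. All DMM arrays were lower by more than the spread of either group, by 0.98 ± 0.15 on the log2 scale, 1.97-fold (adjusted p = 0.00446). At 4 weeks the DMM arrays read 9.17, 9.0 and 8.64 and the contralateral arrays 9.47, 9.10 and 9.35, just overlapping, with a difference of -0.37 ± 0.17 (adjusted p = 0.381). At 8 weeks they read 9.04, 9.06 and 9.35 against 9.23, 9.37 and 9.13, with no separation and a difference of -0.09 ± 0.16.

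Contralateral osteoprotegerin stayed between 9.08 and 9.47 on all 9 arrays, and the DMM side moved. Within DMM cartilage it rose by 0.68 ± 0.16 from 2 to 4 weeks (adjusted p = 0.0399) and by 0.89 ± 0.15 from 2 to 8 weeks (adjusted p = 0.0434). It was the only member called in that second comparison, 1.30% beside 0.896% of all genes (0.304% rose). Each call was kept in only 1 of 6 fits with an array left out. The first was lost without any DMM array of 2 weeks or DMM replicate 1 or 2 of 4 weeks (adjusted p = 0.0609 to 0.182). The second was lost without any DMM array of 2 weeks or DMM replicate 2 or 3 of 8 weeks (0.053 to 0.251). The change of the DMM effect from 2 to 8 weeks was 0.89 ± 0.23 and did not pass (adjusted p = 0.23).

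The RANKL gene leaned the other way. Tnfsf11 read 6.87, 6.38 and 7.04 in contralateral and 7.25, 7.28 and 7.44 in DMM cartilage at 2 weeks, with no overlap and a difference of 0.56 ± 0.17 (adjusted p = 0.083). At 4 weeks it read 6.52, 6.94 and 6.55 against 6.75, 7.14 and 6.57, overlapping, and at 8 weeks 6.46, 6.46 and 6.38 against 7.17, 7.15 and 6.72, apart again. Over the 3 weeks the mean difference was 0.43 ± 0.11 (adjusted p = 0.0142), and 0.35 (adjusted p = 0.0992) with 8 weeks left out. Tnfrsf11a, a dim probe, read 5.60, 5.56 and 5.96 against 6.36, 6.14 and 6.24 at 2 weeks. Its DMM arrays were higher, by 0.55 ± 0.15, just short of the threshold (adjusted p = 0.0512). The mean of 6 osteoclast markers was 6.54 to 6.61 on contralateral and 6.78 to 7.23 on DMM arrays at 2 weeks, with the protease gene Ctsk called, and 6.55 to 6.93 against 6.30 to 6.81 at 8 weeks. The mean of 8 osteoblast and osteocyte markers was 8.38 to 8.59 on contralateral and 8.03 to 8.48 on DMM arrays at 2 weeks. Of these markers Sost was called at 2 weeks, and it fell. The part of either list in the Tnfrsf11a, Tnfsf11 and Tnfrsf11b values was not tested.

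**Figure D4:**
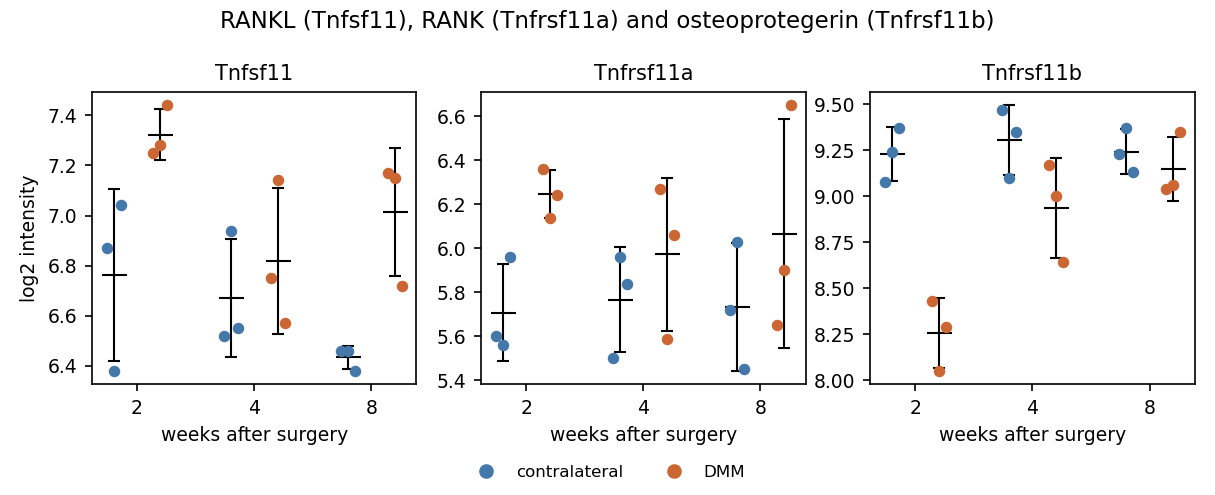
Log2 intensity (y axis) of Tnfsf11, Tnfrsf11a and Tnfrsf11b on each array by weeks after surgery (x axis). Points are arrays, bars the mean and SD of 3 arrays. Tnfrsf11b in DMM cartilage was 8.05 to 8.43 at 2 weeks, below every other array, and 9.04 to 9.35 at 8 weeks.

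The 2 receptors for TNF itself were higher across the time course. Tnfrsf1a, the receptor with a death domain that most cells carry, was read by 3 probes that gave mean differences over the 3 weeks of 0.43 ± 0.11, 0.41 ± 0.11 and 0.35 ± 0.10 (adjusted p = 0.0147, 0.0163 and 0.0348). At no single week did it pass. Tnfrsf1b, the second receptor, found mostly on immune and endothelial cells, read 6.83, 6.66 and 6.21 in contralateral and 7.11, 7.02 and 7.10 in DMM cartilage at 2 weeks. At 8 weeks it read 5.62, 5.91 and 6.21 against 6.69, 7.92 and 6.72, again with every DMM array higher. Its mean difference was 0.80 ± 0.15 (adjusted p = 0.00176), while a dimmer second probe read 0.08 ± 0.10.

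Other TNF receptors were lower at 2 weeks. Tnfrsf10b, a TRAIL death receptor, read 10.32, 10.24 and 9.74 in contralateral and 9.46, 9.56 and 9.36 in DMM cartilage at 2 weeks, with no overlap. The difference was -0.64 ± 0.17 (adjusted p = 0.0433), and 4 dimmer probes read -0.14 to 0.38 without a call. The call was kept in 1 of 6 fits with an array left out. It was lost without contralateral replicate 1 or 2 or any DMM array (adjusted p = 0.0705 to 0.182), and the mean of its probes differed by -0.01. Tnfrsf21 (death receptor 6) fell on a dimmer probe, by 0.63 ± 0.15 (adjusted p = 0.0292), with -0.46 ± 0.16 on the brightest (adjusted p = 0.128). Tnfrsf22, a mouse decoy receptor for TRAIL, read 7.30, 7.20 and 7.10 against 6.75, 6.69 and 6.61. It differed by -0.52 ± 0.13 (adjusted p = 0.0369), where 3 other probes read -0.12 to 0.11. Tnfrsf21 and Tnfrsf22 each lost the call without contralateral replicate 1 or any DMM array, with adjusted p from 0.0711 to 0.118 and from 0.0887 to 0.171.

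Other TNF family genes did not pass at any week. Tnfrsf12a (Fn14), the receptor for TWEAK, came nearest, at 0.57 ± 0.16 at 2 weeks (adjusted p = 0.0617) with every DMM array above the contralateral arrays. Tnfsf10 (TRAIL) stood at -0.08 ± 0.18, -0.09 ± 0.15 and 0.10 ± 0.18 at 2, 4 and 8 weeks.

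Among interleukin receptors, Il13ra1 and Il17rd rose at 2 weeks. Il13ra1, which pairs with Il4ra to receive interleukins 4 and 13, read 6.55, 5.46 and 6.50 in contralateral and 7.32, 7.51 and 7.74 in DMM cartilage. All DMM arrays were higher, by 1.35 ± 0.26 or 2.55-fold (adjusted p = 0.0119). The call was lost without DMM replicate 2 or 3 (adjusted p = 0.0602 and 0.0708). At 4 weeks it read 6.77, 6.12 and 6.50 against 7.04, 7.37 and 7.36 (0.79 ± 0.18, adjusted p = 0.0739), and at 8 weeks 6.10, 6.52 and 6.32 against 7.45, 7.15 and 6.63 (0.76 ± 0.23, adjusted p = 0.449). The groups stayed apart at each week. Its partner Il4ra stood at 0.19 ± 0.18 at 2 weeks and 0.48 ± 0.20 at 8 weeks, with no call.

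Il17rd (Sef) is an orphan-like member of the interleukin 17 receptor family that restrains fibroblast growth factor signalling. It read 6.42, 6.74 and 6.43 in contralateral and 7.49, 7.89 and 7.49 in DMM cartilage at 2 weeks. The DMM arrays were higher by 1.09 ± 0.16, 2.13-fold (adjusted p = 0.00391), on the brightest probe only, since a second probe read 0.07 ± 0.15. At 4 and 8 weeks it overlapped, at 0.21 ± 0.25 and 0.31 ± 0.25, while the second probe stood at 0.79 ± 0.26 at 8 weeks (adjusted p = 0.484).

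Il27ra, the receptor chain for interleukin 27 on lymphocytes, fell. Its contralateral arrays read 6.99, 6.99 and 6.98 and its DMM arrays 6.47, 6.51 and 6.37 at 2 weeks, a clear gap of -0.54 ± 0.12 (adjusted p = 0.0272). The call was lost without contralateral replicate 1 (0.057) or any DMM array (0.0842 to 0.141). Il17rb, a receptor chain for interleukin 25, read 6.09, 6.78 and 6.49 against 5.91, 5.53 and 5.94, also apart, at -0.66 ± 0.19 (adjusted p = 0.0636). The mean of 4 lymphocyte markers was 5.79 to 6.08 on contralateral and 5.73 to 5.81 on DMM arrays at 2 weeks, and none was called.

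Of the interleukins only Il33 was called at 2 weeks. Il33 is a nuclear alarm signal of barrier and stromal cells. It read 5.97, 6.05 and 6.11 in contralateral and 6.41, 6.92 and 6.99 in DMM cartilage, with all DMM arrays higher, by 0.73 ± 0.16 (adjusted p = 0.0253). The call was lost without contralateral replicate 1 or DMM replicate 2 or 3 (adjusted p = 0.0641, 0.122 and 0.133). The fibroblast and synovium markers were higher on every DMM array as well, and their part was not tested.

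Il11, a cytokine that signals through Il6st and acts on stromal and bone cells, was higher at each week without passing at any. It read 5.82, 5.67 and 6.27 against 6.57, 6.39 and 6.38 at 2 weeks. At 8 weeks it read 5.78, 5.82 and 5.70 against 7.15, 6.70 and 6.34, a wider gap of 0.97 ± 0.21 (adjusted p = 0.388). The median residual SD of member probes within groups was 0.28 at 8 weeks, beside 0.198 at 2 weeks and 0.22 at 4 weeks. In 1 fit of all 18 arrays, which takes 1 spread per probe over all weeks, Il11 and Tnfrsf1b passed at 8 weeks (adjusted p = 0.0458 and 0.0462). Otherwise no member was called at 8 weeks, beside 0.0% of all genes, although the brightest probe of 9 members had an unadjusted p below 0.05 in limma, 11.7% beside 9.16% of all genes. At that week 8 members lay wholly above the contralateral arrays and 3 wholly below, beside 7.98% and 7.06% of all genes, with a median of 0.10 beside 0.01.

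The classical inflammatory interleukins and their receptors were not called between the knees. Il1b, the main cartilage-catabolic interleukin, lay at percentile 6.0 of the probe means and read 5.68, 5.64 and 5.27 in contralateral and 5.59, 5.52 and 5.52 in DMM cartilage at 2 weeks. It stood at 0.01 ± 0.14, 0.47 ± 0.19 and -0.12 ± 0.18 at 2, 4 and 8 weeks. Il6 lay at percentile 9.6 and stood at 0.15 ± 0.16, -0.03 ± 0.16 and 0.32 ± 0.15. At 8 weeks every Il6 DMM array lay above the contralateral arrays, without a call (adjusted p = 0.598). Il18, an inflammasome product, stood at 0.03 ± 0.13 at 2 weeks.

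Il1r1, the signalling receptor of interleukin 1, was among the brighter members and read 8.97, 9.14 and 9.34 in contralateral and 8.64, 8.75 and 8.73 in DMM cartilage at 2 weeks. The DMM arrays were all lower, by 0.44 ± 0.14 on the log2 scale, and the difference did not pass (adjusted p = 0.0866). Its natural antagonist Il1rn stood at -0.28 ± 0.13 at 2 weeks and 0.00 ± 0.15 at 8 weeks. Il6st (gp130), the shared signalling chain of interleukins 6 and 11, stood at 0.53 ± 0.18 (adjusted p = 0.111) at 2 weeks, and Il6ra, the binding chain for interleukin 6, at -0.35 ± 0.17 (adjusted p = 0.281).

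Over the mean of the 3 DMM effects, fitted on all 18 arrays and so sharing its data with the weekly comparisons, 18 members were called, 23.4% beside 13% of all genes. The 13 that rose were Ackr1, Ackr4, Ccl21a, Ccl9, Cxcl14, Cxcl16, Il11, Il13ra1, Il17rd, Il33, Tnfrsf1a, Tnfrsf1b and Tnfsf11, 16.9% of members beside 7.02% of all genes. The 5 that fell were Il17rb, Il27ra, Tnfrsf10b, Tnfrsf11b and Tnfrsf21, 6.49% beside 6.04%. The largest was Il13ra1 at 0.97 ± 0.15 (adjusted p = 0.000385). Cxcl14 stood at 0.61 ± 0.10 (0.000593), Il11 at 0.71 ± 0.12 (0.000813) and Ccl9 at 0.58 ± 0.10 (0.00156). Cxcl16 stood at 0.68 ± 0.14 (0.0046), and among those that fell Tnfrsf11b at -0.48 ± 0.09 (0.0025) and Il17rb at -0.43 ± 0.11 (0.0134). The median over members was 0.06, beside 0.01 for all genes. Leaving out 1 array ended 4 of these calls. Ccl21a needed DMM replicate 3 of 2 weeks (adjusted p = 0.0565 without it), and Il17rd needed DMM replicate 2 of 2 weeks (0.0611) and of 8 weeks (0.0535). Il33 was lost without DMM replicate 2 or 3 of 2 weeks or contralateral replicate 2 or DMM replicate 3 of 4 weeks (0.0501 to 0.054), and Tnfrsf21 in 10 of 18 such fits (0.0547 to 0.0791). Tnfrsf21 was also lost with 8 weeks left out (0.0545). The mean of the Tnfrsf10b probes differed by -0.02 (adjusted p = 0.87), and its 4 dimmer probes read -0.03 to 0.21. With 8 weeks left out 25 members were called, 17 of them among these 18. The share of all genes called in that fit is not given, so the 25 cannot be set beside it.

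On the brightest probe, 5 of the 77 members lay wholly above the contralateral arrays at each of the 3 weeks, beside 1.35% of all genes. They were Ccl9, Cxcl14, Il11, Il13ra1 and Tnfrsf1b. A dimmer Tnfrsf1b probe had a lower mean in DMM cartilage at 2 weeks, 5.85 against 6.12. A dimmer Cxcl14 probe overlapped at 4 and 8 weeks. No member lay below at each week, beside 0.913% of all genes. The 5 come from different roles: a CC ligand, a CXC ligand, an interleukin, an interleukin receptor and a TNF receptor. Their mean differences ran from 0.58 for Ccl9 to 0.97 for Il13ra1. The fibroblast and synovium list was also higher on every DMM array at each week, at 9.20 to 9.78 against 10.03 to 10.46 at 4 weeks and 9.55 to 9.75 against 10.01 to 10.34 at 8 weeks, and its part in these 5 was not tested.

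**Figure D5:**
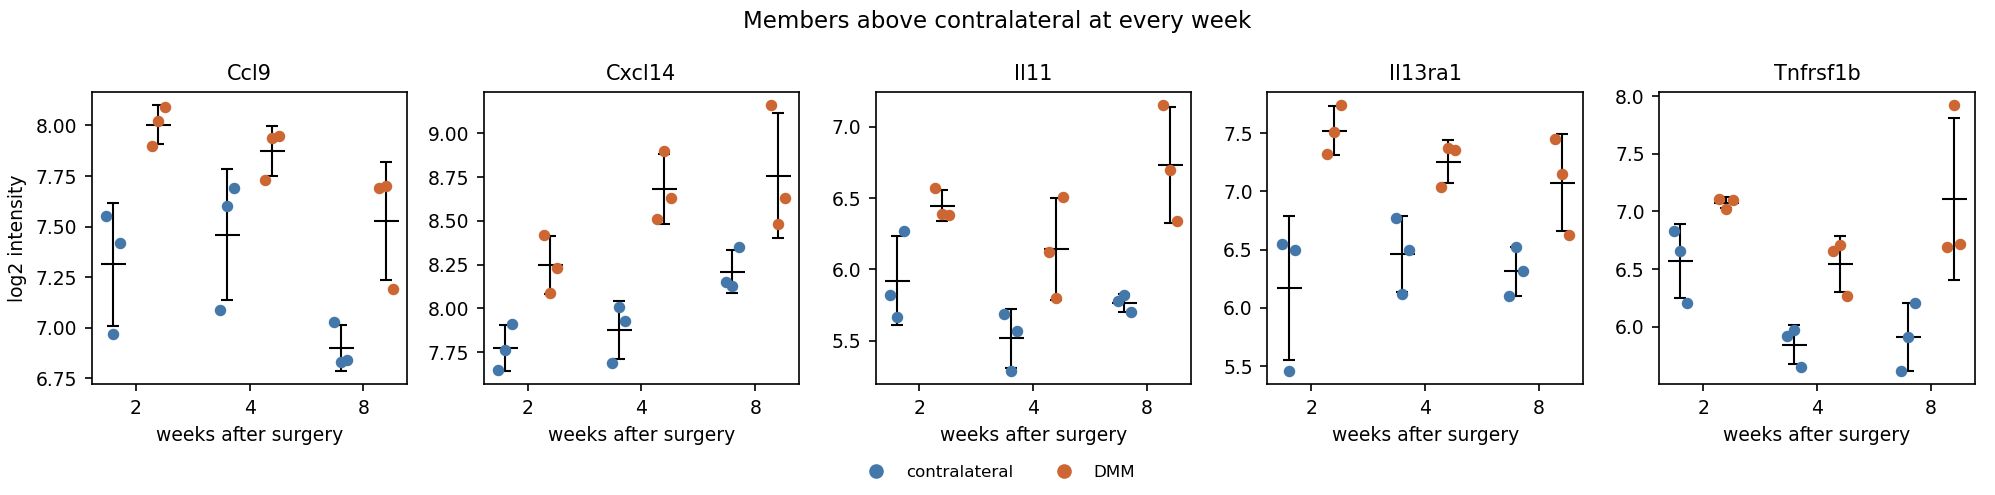
Log2 intensity (y axis) of Ccl9, Cxcl14, Il11, Il13ra1 and Tnfrsf1b (brightest probes) on each array by weeks after surgery (x axis). Points are arrays, bars the mean and SD of 3 arrays. At each week the 3 DMM arrays lie above the 3 contralateral arrays, narrowly for Ccl9 at 4 weeks (7.69 against 7.73).

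No member changed its DMM effect between weeks past the threshold. For 4 against 2, 8 against 2 and 8 against 4 weeks the counts were 0, beside 0.0% of all genes each time, with the brightest probe of 3, 13 and 7 members at an unadjusted p below 0.05 in limma. These were 3.9%, 16.9% and 9.09% of members, beside 5.57%, 10.9% and 7.69% of all genes. No member was called between weeks in contralateral cartilage either, beside 0.191% of all genes for 4 against 2 weeks and 0.0% for the other two (2 members for 4 against 2 weeks without contralateral replicate 2 of 2 weeks), with 8, 12 and 7 members at an unadjusted p below 0.05 for 4 against 2, 8 against 2 and 8 against 4 weeks. Those were 10.4%, 15.6% and 9.09% of members, beside 7.37%, 7.3% and 7.38% of all genes. In DMM cartilage no member was called between 8 and 4 weeks, beside 0.0783% of all genes, and 12 had an unadjusted p below 0.05, 15.6% beside 11.1% of all genes.

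Of 87 listed other genes of the same pathways 61 were measured. Of all named genes 4.89% rose and 3.77% fell at 2 weeks, and 7.02% rose and 6.04% fell over the 3 weeks. At 4 and 8 weeks 0.939% and 0.0% of all named genes were called. Among the 61 the counts were as follows. At 2 weeks 4 rose and 3 fell, at 4 and 8 weeks 0 were called, and over the 3 weeks 6 rose and 4 fell, with medians of 0.08, 0.08, 0.09 and 0.10. The 7 calls at 2 weeks dropped to 3 without DMM replicate 1 or 2. The feedback inhibitors Socs3 and Socs2, which shut down cytokine receptor signalling, rose at 2 weeks by 0.98 ± 0.14 (adjusted p = 0.00393) and 1.04 ± 0.17 (adjusted p = 0.00655). Pf4, a platelet chemokine whose symbol lies outside the rule, rose by 1.15 ± 0.19 (adjusted p = 0.00613), and Osmr, the oncostatin M receptor that pairs with Il6st, by 0.63 ± 0.16 (adjusted p = 0.0447). Cntfr, the ciliary neurotrophic factor receptor, fell by 0.83 ± 0.16 (adjusted p = 0.0141), Cd27, a TNF receptor of lymphocytes, by 0.74 ± 0.15 (adjusted p = 0.0149), and the adaptor Traf4 by 0.70 ± 0.17 (adjusted p = 0.0366). Over the 3 weeks the adaptor Traf1 stood at 0.51 ± 0.10 (adjusted p = 0.00287) and the cytokine Ctf1 at -0.41 ± 0.08 (adjusted p = 0.00362).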

How the data were processed

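RNA from medial tibial plateau cartilage, amplified by the authors, was read on Illumina bead arrays, 18 in all. The authors quantile-normalised the signals with lumi 2.8.0 in R 2.15.0, and the deposited log2 intensities of 22999 probes were used as given. Array number limits precision. Arrays correlated at 0.91 to 0.982, with 0 duplicate pairs. The 36 columns of an unnormalised table, named by running numbers, were not used, so no probe was judged by its detection p-value. The annotation gave 1 gene for 18998 probes, several for 6, and 3995 were not listed. Groups were compared with limma 3.58.1 (R 4.3.3) in 13 comparisons: each week's DMM minus contralateral, weeks within a side, and in 1 fit of 18 arrays the mean DMM effect and its changes. P-values were adjusted by Benjamini-Hochberg over all probes. Some of the 13 comparisons were run on simulated data. Limits on false calls and recovery were set only for a spread equal over weeks. Where each week had its own spread, only the mean error and the sign of calls were checked. Deviations of the 9 same-numbered pairs of pools correlated at -0.10 to 0.13, 1 of them over 0.1. With 3 arrays a group this cannot tell whether equal numbers mark shared mice.

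Members and gene lists were chosen with earlier results of these data known. Named genes were those called in any comparison, 28 fixed for their place in joint biology (23 measured, Ccl2, Il1rl1, Il11ra1, Il17b and Cxcl5 not analysed here), up to 2 per role on the same side at every week, and up to 2 risen and 2 fallen per pathway list. Exceptions, chosen after their values were seen, were partners of named genes (Ccl19, Ccl21c, Ccl25, Ccl7, Cxcr6 and Il4ra). Alternatives were other normalisations, fits, weights, probe filters and averages, a replicate block and leaving out arrays. Promoters came from RefSeq (GRCm38.p6), and 61 of 77 members matched.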

Additional observations from a re-analysis of the deposited data

How the results depend on the processing

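Counts of members called at 2 weeks and over the 3 weeks stayed within 1.5 times the values given under every other normalisation, fit, weight, filter and average tried. At 4 weeks, where 1 was called, 1 fit of all 18 arrays and the mean of a gene's probes gave 0 and an intensity trend with robust variances 3. At 8 weeks, where 0 were called, the fit of 18 arrays gave 2. Between 4 and 2 weeks in DMM cartilage, where 7 were called, it gave 1, and probes above the median intensity gave 4. Between 8 and 2 weeks, where 1 was called, cyclic loess, the fit of 18 arrays and the mean of a gene's probes gave 2, the trend and array weights 3, and probes above the median 4. The cause was not tested. Shares of all named genes are given for the main fits only, so counts under the settings in this section cannot be set beside them.

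Leaving out each array in turn gave 5 to 16 members at 2 weeks, 0 to 3 at 4 weeks, 0 to 0 at 8 weeks and 15 to 21 over the 3 weeks. It gave 4 to 9 for 4 against 2 weeks in DMM cartilage, 0 to 2 for 8 against 2 weeks and 0 to 2 for 4 against 2 weeks in contralateral cartilage. Other comparisons between weeks, and all changes of the DMM effect, gave 0 to 0. Pathway genes outside the naming rule gave 3 to 9 at 2 weeks, 0 to 1 at 4 weeks, 0 to 0 at 8 weeks and 9 to 15 over the 3 weeks. Against 0 of them at 4 and at 8 weeks, the trend gave 1 at each and the fit of 18 arrays 2 at 8 weeks.

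The replicate number is not stated to mark pools of the same mice. With it as a block, the 2-week calls of Cxcr2, Il27ra, Tnfrsf21 and Tnfrsf22 were lost (adjusted p = 0.0553, 0.0527, 0.0513 and 0.06), and 4 members and 3 pathway genes were called at 4 weeks. Of the 9 DMM arrays, 4 correlated best with the contralateral array of their own number.

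Chosen after seeing the data, contralateral replicate 2 and DMM replicate 3 of 8 weeks were left out together, since their means of 12 neutrophil markers, 6.54 and 6.44, stood apart from the other 8-week arrays. This gave 2 members for 8 against 2 weeks in DMM cartilage, 0 at 8 weeks and 20 over the 3 weeks, 15 of them among the 18. With 8 weeks left out, 16 pathway genes were called over the other weeks, beside 10. Over all settings, 3077 values kept their direction and side of the threshold, 122 lost a call, 51 gained one and 0 reversed. These were named genes in each week's DMM effect and in its mean, and members called between weeks in DMM cartilage. Changes of the DMM effect and weeks compared within contralateral cartilage were not counted. The 3 arrays a group limit the precision of every member, and 49 of the 77 had a brightest probe below the median intensity.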
